A study of Mus musculus with 7 samples.

Results

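The ABC (ATP-binding cassette) transporter family was read as the 50 genes of 46603 gene rows whose symbol is Abc followed by a letter from a to g and a number, with pseudogenes left out. It holds 16 genes of subfamily A, 10 of B, 10 of C, 4 of D, 1 of E, 3 of F and 6 of G, on 18 chromosomes. The libraries came from TRAMP-C1, a prostate epithelial tumour line of the mouse strain C57BL/6-TgN(TRAMP)8247Ng, in which a transgene gives rise to prostate tumours. All groups are this one line, so the replicates share one line's background. Fusion libraries (3) came from cells transduced with lentivirus carrying the PAX8-NFE2L2 fusion gene. Empty vector libraries (3) came from cells given the matching vector without insert. A single WT library carries no vector in its label. Fusion and empty vector cells were exposed to virus for 12 h and then kept for 24 h in new medium before RNA was taken, while the handling of the WT cells is not given in the labels. All poly(A) libraries were read from one end over 50 bp. NFE2L2 encodes NRF2, a transcription factor of antioxidant and detoxification genes, and PAX8 is a paired-box factor known from the thyroid and the kidney. Whether replicates are separate cultures is not labelled, so each p-value reflects only how these libraries differ among themselves, which may be technical.

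ABC proteins use ATP at paired nucleotide-binding domains, and most of them move substrates across membranes. Subfamily A handles lipids, B holds the P-glycoproteins along with mitochondrial and lysosomal members, and C holds the multidrug resistance proteins that export glutathione, glucuronide and sulfate conjugates. D proteins carry fatty acids into peroxisomes or cobalamin out of lysosomes, G proteins export sterols and foreign compounds, and E and F proteins act on ribosomes and translation rather than in membranes. Several subfamily C genes are described elsewhere as NRF2 targets. The comparison of fusion with empty vector is the one the series was designed for.

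Depth was 26368182 to 59597170 gene counts per library, so that 3 counts, the limit that a count of 0 allows, correspond to 0.0502 to 0.112 CPM (reads relative to the library total scaled by TMM factors, the unit of every level here, with counting error only). Pax8 stood at 6.42, 8.32 and 5.56 CPM in the fusion libraries, against 0.0335, 0.0364 and 0.217 CPM with empty vector and 0.0402 CPM in WT. The labels call the cells prostate epithelial, yet the summed level of 5 epithelial markers (Epcam, Cdh1, Krt8, Krt18, Krt19) was 18.5 to 51.1 CPM with the fusion, 40.5 to 79.7 CPM with empty vector and 18.8 CPM in WT. The luminal genes Hoxb13, Pbsn and Tmprss2 lay at or under 0.0747 CPM in each of the 7 libraries. Mesenchymal genes such as Vim, Col1a1 and Fn1 were far higher (8 genes summed, 11060.5 to 17370.9, 10139.2 to 19018.8 and 19238.2 CPM in the same order of groups). Of the markers of other cells, 5 immune genes summed to 2.06 to 3.29, 1.52 to 2.71 and 1.04 CPM, with Cd3e at 0 in all 7 libraries, and 4 endothelial genes to 0.71 to 0.857, 0.419 to 0.773 and 0.944 CPM. Krt18 rose with the fusion (edgeR adjusted p = 0.0304), as did Foxa1 and Insm1 (0.0238 and 0.0052), which had 0 counts in all 3 empty vector libraries and were tested only because the fusion libraries were high. Krt19, the most abundant epithelial marker, lay at 11.5, 10.8 and 41.4 CPM with the fusion, against 61.8, 38.6 and 74.9 CPM with empty vector and 17.3 CPM in WT (log2 fold change -1.45, edgeR adjusted p = 0.323, 0.0437 with the replicate block). Cdh1 lay at 1.8, 1.3 and 3.51 CPM with the fusion, against 0.921, 0.401 and 0.942 CPM with empty vector and 0.482 CPM in WT. Its log2 fold change was 1.55 (edgeR adjusted p = 0.227, 0.022 with the replicate block). The part of these lineage genes in the transporter values was not tested. Both libraries numbered 3 came from other lanes than the rest and had more reads with several alignments (44.78% with the fusion and 45.32% with empty vector, against 36.1 to 38.89% elsewhere).

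Upstream sequence is shown for 2 of the members on which the results turn, Abcb4 and Abcc4, as 250 bases ending just before a RefSeq start (GRCm38.p6), 5′ to 3′. Capitals mark the core of the antioxidant response element, the DNA element that NRF2 binds, searched as TGACNNNGC on both strands. This core can overlap the AP-1 motif TGANTCA, and no site in a member's window did.
Abcb4 (chr5:8893471-8893720, plus strand): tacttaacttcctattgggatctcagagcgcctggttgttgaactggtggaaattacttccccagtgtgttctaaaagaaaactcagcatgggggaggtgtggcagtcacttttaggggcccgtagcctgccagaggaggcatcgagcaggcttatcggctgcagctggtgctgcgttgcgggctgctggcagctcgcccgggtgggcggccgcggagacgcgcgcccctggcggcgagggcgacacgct
Abcc4, start of the full gene (chr14:118706220-118706469, minus strand): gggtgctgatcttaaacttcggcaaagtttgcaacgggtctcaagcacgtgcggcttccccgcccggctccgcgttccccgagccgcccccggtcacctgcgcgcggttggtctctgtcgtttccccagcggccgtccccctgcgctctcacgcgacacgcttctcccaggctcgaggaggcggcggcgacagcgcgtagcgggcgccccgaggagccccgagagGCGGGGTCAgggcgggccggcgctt
Abcc4, inner start (chr14:118676932-118677181, minus strand): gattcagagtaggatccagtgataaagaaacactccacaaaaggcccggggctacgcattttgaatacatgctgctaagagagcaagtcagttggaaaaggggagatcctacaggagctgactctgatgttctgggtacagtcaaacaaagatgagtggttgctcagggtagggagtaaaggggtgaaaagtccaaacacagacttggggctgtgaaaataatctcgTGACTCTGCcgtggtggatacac
Abcc4 had the core in both of its windows, on the gene's own strand 23 bases before the inner start (TGACTCTGC) and on the opposite strand 25 bases before the other (GCGGGGTCA). Abcb4 had none in its window. Windows of 300 bases (250 before to 50 after a start) were listed for 38 members, and 5 of them held a core: Abca8b, Abcb1a, Abcc2, Abcc4 and Abcc10. No window was listed for Abcc1, Abcc3 or Abcc8, so these genes were not searched and may or may not hold a core. The Abcb1a window (chr5:8566841-8567140) lies far upstream of that gene as GENCODE M21 draws it, with a start at 8660077. Its core is therefore not near the start of the gene as counted here. By window, 7 of 45 (15.6%) held one, beside 12.4% of 32851 windows over all genes. A match describes letters only and shows no binding.

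Across the family, 4 of 36 tested members rose with the fusion and 0 fell (edgeR, adjusted p under 0.05). Over all 16731 tested genes 2.04% were called, 1.69% higher and 0.353% lower. The 4 were Abcb4, a phosphatidylcholine exporter of the bile canaliculus, Abcc3 and Abcc4, exporters of organic anions and conjugates, and Abcc8, the sulfonylurea receptor subunit of a potassium channel. Subfamily C held 3 of them among 7 tested members and subfamily B held 1 among 8. Abcc8 counts among these although it was tested only because the fusion libraries were high, and its call ended in 4 of 5 fits without 1 library. Of the 50 genes, 2 (Abca14 and Abca16) had no read in any library, 9 reached at most 9 counts in a library, and 14 in all were too low for the test. Replicate numbers were taken to pair the libraries, from a check on these same values and not from a label. With the replicate as a block 11 members rose and 4 fell, against 7.63% and 5.5% of all tested genes. That is 41.7% of the tested members called in either direction, beside 13.1% of all genes. DESeq2 called 7 of 41 members, 6 higher and 1 lower, beside 4.81% of all genes it tested (3.29% higher and 1.52% lower). In bulk RNA, a lower level can come from fewer cells that express a gene or from less RNA per cell, and the 2 cannot be told apart.

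**Figure D1:**
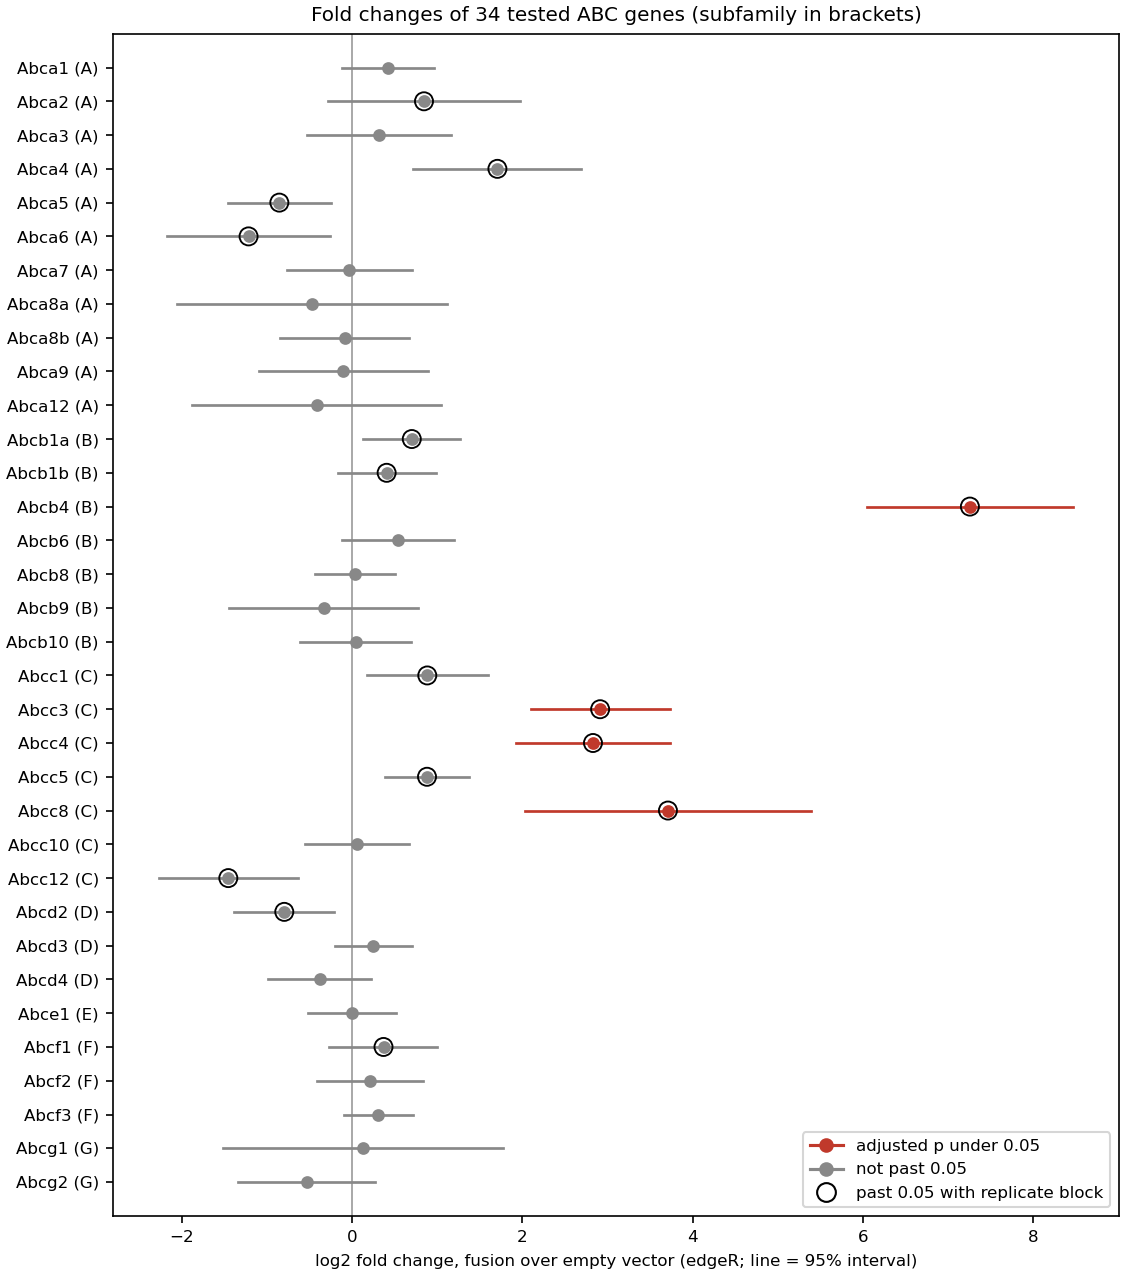
Log2 fold change of fusion over empty vector for 34 of the 36 tested members (points; lines are 95% intervals from edgeR), ordered by symbol with the subfamily in brackets. Red points passed an adjusted p of 0.05, open rings mark those that passed with the replicate block; Abcb4 stands farthest out at 7.26, and Abcc3, Abcc4 and Abcc8 lie between 2.83 and 3.71.

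Abcb4 (ENSMUSG00000042476.11, chromosome 5:8893717-8959231, plus strand, GRCm38) had the largest fold change of the family. Its level was 60.3, 103.6 and 48.8 CPM in the fusion libraries, against 0.72, 0.437 and 0.217 CPM with empty vector, and 1.43 CPM in WT. All 3 fusion libraries lay far above the other 4, and the WT library lay above all 3 with empty vector. Fusion exceeded empty vector by 7.26 on the log2 scale (SE 0.525, 95% interval 6.05 to 8.47, edgeR adjusted p = 0.000798), a 153-fold difference. Leaving out any 1 library kept the call in 6 of 6 fits (6.87 to 7.75 on the log2 scale). Per kilobase of exon Abcb4 ranked 11 of 50 members by its mean with the fusion and 32 with empty vector. Its share of the summed subfamily B level per kilobase was 16.1 to 28.4% with the fusion, against 0.111 to 0.256% with empty vector and 0.622% in WT.

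Abcb1a and Abcb1b, the mouse P-glycoproteins that export foreign compounds, lie next to Abcb4 in the same order on chromosome 5 (8660077-8748575 and 8798147-8866315, plus strand). Abcb1a lay at 5.35, 5.6 and 5.08 CPM in the fusion libraries, against 2.88, 3.51 and 3.65 CPM with empty vector and 0.743 CPM in WT. The groups did not overlap, and WT lay below both. At 0.70 on the log2 scale it missed the threshold (edgeR adjusted p = 0.294), and with the replicate block it was 0.71 and passed (adjusted p = 0.0471). Abcb1b, the more abundant of the pair, lay at 71.4, 50.6 and 48.6 CPM with the fusion, against 53.5, 44.2 and 33.1 CPM with empty vector and 35.4 CPM in WT. Fusion and empty vector libraries overlapped, and within each replicate number the fusion library was higher (1.33, 1.14 and 1.47 times). It passed with the block only (log2 fold change 0.40, edgeR adjusted p = 0.709 without and 0.0362 with it). The 2 genes are close paralogs, so reads that align to both are not counted, and each overlaps exons of a gene on the other strand (Gm42686 and Gm5106), which unstranded counting could not separate. Among the 13 other tested genes within 500 kb of Abcb4, 0 passed without the block, and log2 fold changes ran from -0.32 to 1.16. With the block 4 of the 13 passed (Abcb1a, Abcb1b, Crot and Tmem243), beside 13.1% of all tested genes. These neighbours were looked at after the values were seen.

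The other 5 tested members of subfamily B are known from mitochondria or lysosomes, and none passed. Abcb10, a mitochondrial transporter linked to haem synthesis, was the highest of the subfamily per kilobase and lay at 38.2 ± 10.0 CPM with the fusion and 37.7 ± 9.69 CPM with empty vector (SD, n = 3 each). Its 95% interval of the log2 fold change was -0.609 to 0.692. Abcb8 lay at 19.3 ± 1.89 CPM with the fusion and 19.1 ± 2.68 CPM with empty vector. Abcb6, a porphyrin transporter, had a log2 fold change of 0.54 (edgeR adjusted p = 0.609, and 0.0903 with the block), and it shares 2932 bases of exon with Gm29253 on its own strand, where reads count as ambiguous if the authors' annotation holds both. The sum over all 10 members of subfamily B was 253.5, 260.4 and 190.6 CPM with the fusion. It was 168.6, 150.8 and 116.7 CPM with empty vector and 134.4 CPM in WT, so fusion and empty vector did not overlap. Without Abcb4 the other 9 members summed to 193.1, 156.8 and 141.7 CPM with the fusion, against 167.8, 150.3 and 116.5 CPM with empty vector and 133 CPM in WT, and fusion and empty vector overlapped.

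Subfamily C had the largest difference in mean summed level among the subfamilies. The sum over its 10 members was 867.0, 1052.5 and 601.0 CPM with the fusion, against 380.4, 449.0 and 274.8 CPM with empty vector and 304.4 CPM in WT. Every fusion library lay above the other 4, and within each group the library numbered 3 was lowest. Without the 3 called members the other 7 summed to 603, 745.8 and 431.5 CPM with the fusion, against 334.7, 409 and 254.8 CPM with empty vector and 269.5 CPM in WT. The groups again did not overlap.

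Abcc4 (chromosome 14:118482692-118706219, minus strand) exports cyclic nucleotides, prostaglandins and conjugates. Its level was 254.3, 295.6 and 155.5 CPM in the fusion libraries, against 43.9, 39.1 and 18 CPM with empty vector and 32.3 CPM in WT. The lowest fusion library stood above the highest of the rest. On the log2 scale the difference was 2.83 (SE 0.394, 95% interval 1.92 to 3.73, edgeR adjusted p = 0.011), 7.11-fold. Its call held in each of the 6 fits without 1 library, with adjusted p between 0.00769 and 0.0494. The fusion library exceeded its empty vector partner 5.79, 7.56 and 8.61 times in numbers 1, 2 and 3. Per kilobase of exon Abcc4 stood at 36.8 ± 11.3 CPM with the fusion, against 5.27 ± 2.15 CPM with empty vector, and ranked 4, 3 and 4 of 50 in the fusion libraries, against 11, 12 and 17 with empty vector and 12 in WT. It held 46.0, 44.9 and 40.6% of the subfamily C level per kilobase with the fusion, against 21.0, 16.6 and 12.5% with empty vector and 18.9% in WT. Within 500 kb of Abcc4, 1 of 8 other tested genes passed, Cldn10, a claudin of tight junctions (log2 fold change 3.8, edgeR adjusted p = 0.0294), which was looked at after its value was seen.

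Abcc3 (chromosome 11:94343295-94392997, minus strand) exports glucuronides and bile salts across the basolateral membrane. It lay at 9.31, 10.6 and 13.7 CPM with the fusion, against 1.71, 0.91 and 1.91 CPM with empty vector and 2.47 CPM in WT. Fusion libraries did not overlap with either other group, and WT lay just above the empty vector range. Its difference on the log2 scale was 2.91 (SE 0.356, 95% interval 2.1 to 3.73, edgeR adjusted p = 0.00607), 7.53-fold, and it passed in each of the 6 fits without 1 library (highest adjusted p = 0.0254). Within numbers 1, 2 and 3 the fusion library was 5.45, 11.7 and 7.17 times as high. None of the 19 other tested genes within 500 kb passed without the block, and 1 passed with it.

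Abcc8 (chromosome 7:46104523-46180033, minus strand) was called from few reads. It had 18, 28 and 5 counts in the fusion libraries, against 2, 2 and 0 with empty vector and 2 in WT. It passed the filter on low counts through the fusion libraries alone, so a difference was a condition of its being tested. The pooled ratio of counts was 14.7 (exact 95% interval 5.41 to 56.1, counting error only) and the edgeR adjusted p = 0.0458. The call ended in 4 of the 5 fits without 1 library in which it could be tested (adjusted p up to 0.17): each of those that dropped an empty vector library, and the one that dropped fusion replicate 1. It also ended without both libraries numbered 3 (adjusted p = 0.062).

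Abcc1 and Abcc5 had smaller fold changes at higher levels. Abcc1, the classical exporter of glutathione conjugates, lay at 430.2, 565.5 and 281.0 CPM in the fusion libraries, against 229.2, 298.4 and 178.8 CPM with empty vector and 170.3 CPM in WT. Fusion replicate 3 lay below empty vector replicate 2, so the groups overlapped, while each fusion library was above its partner of the same number (1.88, 1.89 and 1.57 times). Without the block Abcc1 missed the threshold (log2 fold change 0.88, SE 0.308, edgeR adjusted p = 0.286), and with the block it was 0.85 (SE 0.0911) and passed (adjusted p = 0.00353). Abcc5, an exporter of cyclic nucleotides and nucleotide analogues, lay at 164.3, 172.2 and 143.0 CPM with the fusion, against 95, 101.7 and 68.4 CPM with empty vector and 86.0 CPM in WT. Its groups did not overlap. Abcc5 missed it too (0.88, SE 0.214, edgeR adjusted p = 0.103), and passed with the block (adjusted p = 0.00261) and with DESeq2 (adjusted p = 0.0166). With the block fitted on any 2 of the 3 numbers, Abcc1, Abcc4, Abcc3, Abcc5, Abca5 and Abcb4 passed each time.

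The other 2 tested members of subfamily C were not called higher. Abcc12 lay at 0.669, 0.5 and 1.01 CPM with the fusion, against 1.74, 2.29 and 1.93 CPM with empty vector and 3.78 CPM in WT. Its groups did not overlap, with WT highest. The fitted difference was -1.46 on the log2 scale (edgeR adjusted p = 0.103, with the block 0.0296, with DESeq2 0.00804). Abcc10 lay at 7.11 ± 0.868 CPM with the fusion and 6.94 ± 1.61 CPM with empty vector (SD, n = 3 each), with a 95% interval of the log2 fold change of -0.549 to 0.664. Abcc2, the canalicular exporter of conjugates in liver, had at most 2 counts in any of the 7 libraries. Abcc6 and Abcc9 were likewise too low to test, with 3, 7 and 9 counts of Abcc6 with the fusion, against 3, 2 and 2 with empty vector and 6 in WT.

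**Figure D2:**
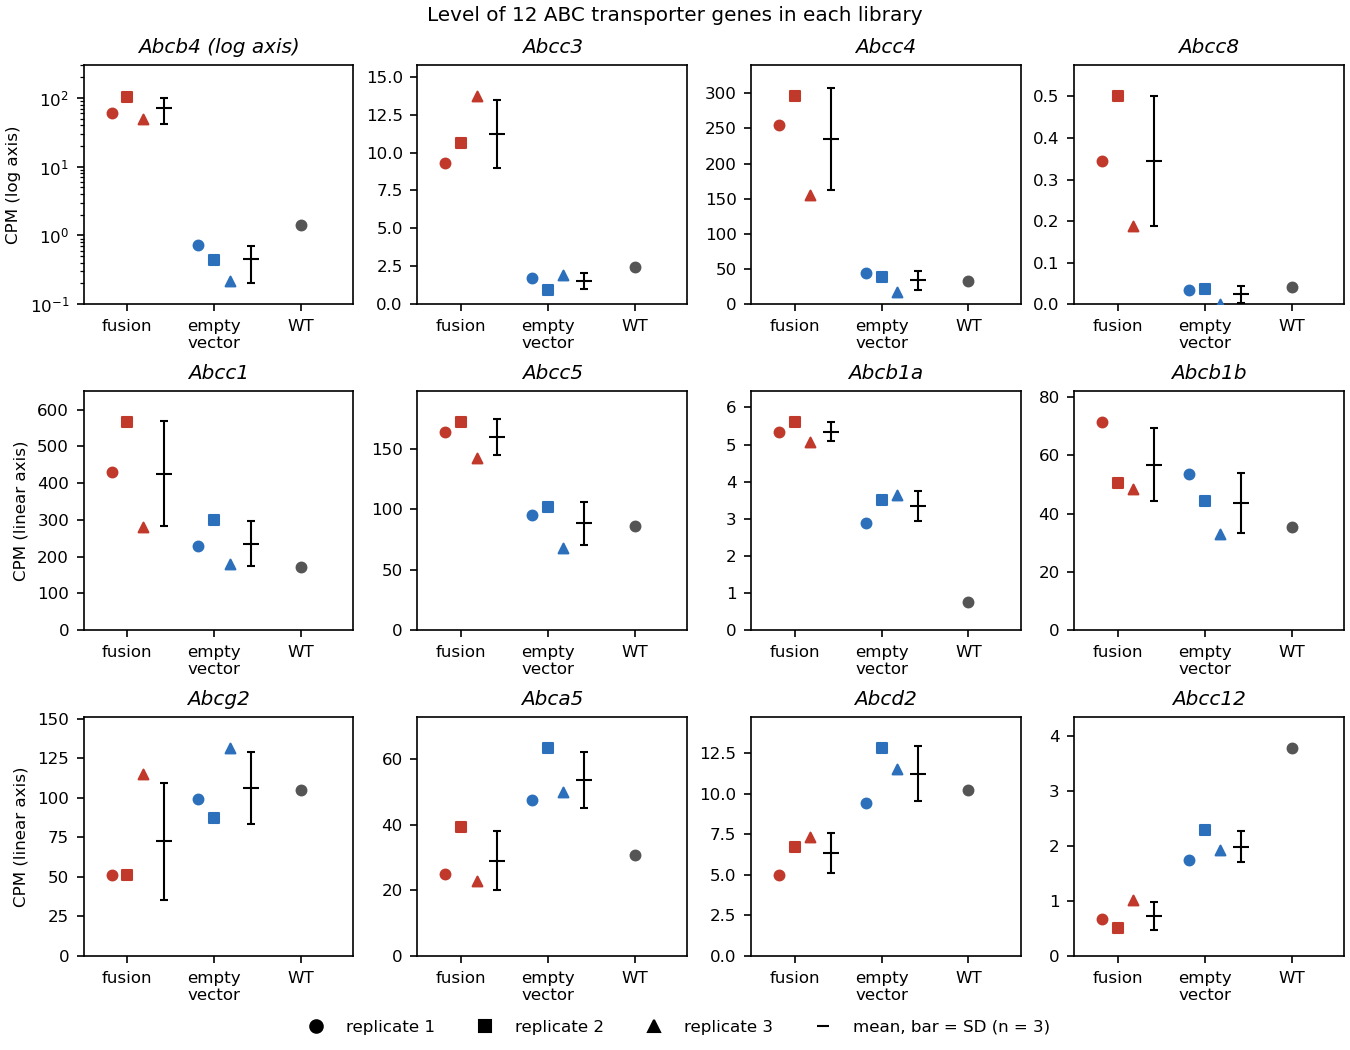
Level in CPM of 12 members in each library (points, shape by replicate number) for fusion, empty vector and WT, with mean and SD beside the groups of 3; the Abcb4 panel has a log axis. The 3 fusion libraries of Abcb4, Abcc3, Abcc4 and Abcc8 stand above all others, those of Abcc1, Abcb1b and Abcg2 overlap with empty vector, and those of Abca5, Abcd2 and Abcc12 lie below empty vector.

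The lipid transporters of subfamily A moved both ways. None of 11 tested members passed without the block, and the median log2 fold change was -0.09, beside 0.01 over all tested genes. Abca1, which loads cholesterol onto apolipoproteins, lay at 16.9, 23.6 and 15.8 CPM with the fusion, against 13.2, 15.7 and 13.7 CPM with empty vector and 15.4 CPM in WT. The lowest fusion library was just above the highest with empty vector, and the gene missed the threshold (log2 fold change 0.42, edgeR adjusted p = 0.635, 0.0865 with the block). With the block, Abca2 and Abca4 rose and Abca5 and Abca6 fell. Abca5, a lysosomal member, lay at 25.0, 39.3 and 22.8 CPM with the fusion, against 47.5, 63.4 and 49.9 CPM with empty vector and 30.9 CPM in WT. Its fusion libraries were below all with empty vector, and WT lay within the fusion range. It missed the threshold without the block (log2 fold change -0.86, edgeR adjusted p = 0.209, 0.00624 with the block). Abca6 lay at 1.38, 1.21 and 2.46 CPM with the fusion, against 3.03, 2.91 and 5.87 CPM with empty vector and 3.48 CPM in WT, again without overlap (-1.22, edgeR adjusted p = 0.271, 0.0127 with the block). Abca5 and Abca6 belong to a run of 5 members on chromosome 11 (109932190-110337716) with Abca8a, Abca8b and Abca9. Those 3 had log2 fold changes of -0.48, -0.09 and -0.11, and none passed, with the block too.

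Abca4, a retinoid transporter of photoreceptors, lay at 1.22, 2.23 and 1.19 CPM with the fusion, against 0.368, 0.401 and 0.701 CPM with empty vector and 0.422 CPM in WT. Its groups did not overlap, and it missed the threshold without the block (log2 fold change 1.71, edgeR adjusted p = 0.116, with the block 0.0393, with DESeq2 0.0121). Abca2, an endosomal and lysosomal member known from the brain, lay at 22.8, 27.9 and 10.8 CPM with the fusion, against 14.3, 15.9 and 4.83 CPM with empty vector and 10.3 CPM in WT. Here the libraries numbered 3 were lowest in both groups and the groups overlapped, while the ratios within numbers were 1.6, 1.76 and 2.23. Its fitted difference was 0.84 on the log2 scale (edgeR adjusted p = 0.669, 0.00932 with the block). Abca7, the highest of the subfamily per kilobase, lay at 45.4 ± 9.81 CPM with the fusion and 47.4 ± 17.8 CPM with empty vector (interval of the log2 fold change -0.768 to 0.697).

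**Figure D3:**
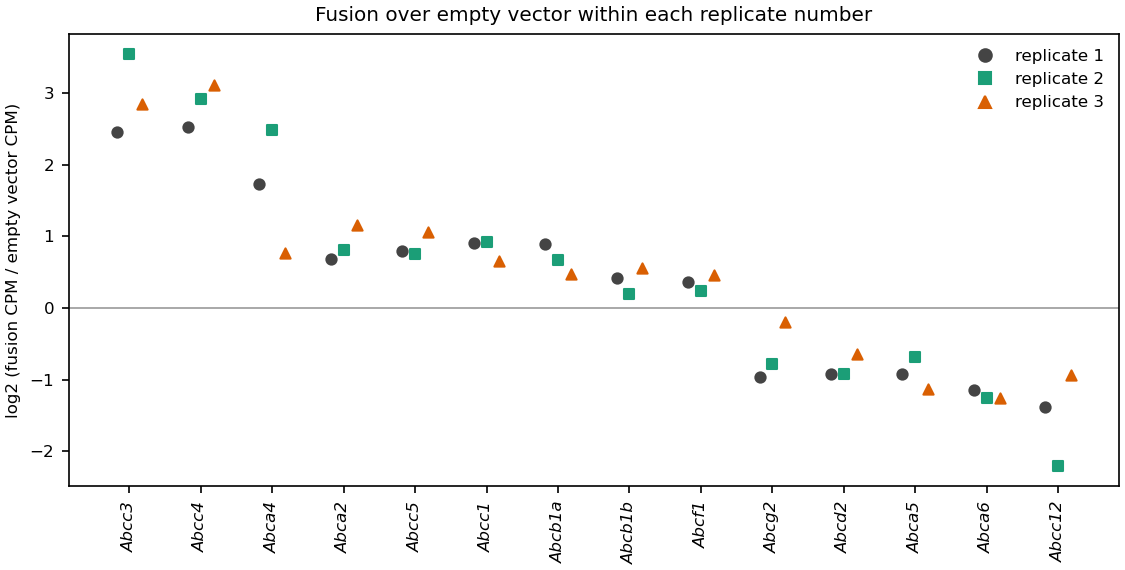
Log2 ratio of fusion to empty vector CPM within replicate numbers 1, 2 and 3 for 14 members, those that passed with the replicate block and had 10 or more counts in all 6 libraries, plus Abcg2. All 3 ratios of each member lie on one side of 0, and the nearest to it are those of Abcb1b in number 2 (0.195) and Abcg2 in number 3. Apart from Abcg2, members were picked by the block fit, which favours ratios of one sign. Their agreement is therefore not a separate result.

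Abcg2, the breast cancer resistance protein that exports foreign compounds and urate, had lower fitted levels with the fusion and did not pass. It lay at 51.2, 50.9 and 115.1 CPM in the fusion libraries, against 99.5, 87.0 and 131.3 CPM with empty vector and 104.9 CPM in WT. Fusion replicates 1 and 2 were below all other libraries, and replicate 3 lay within the empty vector range. Within numbers 1, 2 and 3 the fusion library was 0.514, 0.584 and 0.876 times its partner. Its fitted difference was -0.53 on the log2 scale (95% interval -1.34 to 0.271, edgeR adjusted p = 0.748) and -0.62 with the block (adjusted p = 0.0598). Without fusion replicate 3 it was -1.03 (edgeR adjusted p = 0.106), and with the block and without both libraries numbered 3 it was -0.82 and passed (adjusted p = 0.00104). Abcg1, the partner of Abca1 in cholesterol export, lay at 0.36 ± 0.284 CPM with the fusion and 0.351 ± 0.215 CPM with empty vector. The sterol exporters Abcg5 and Abcg8 had at most 4 counts in a library.

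Peroxisomal Abcd2, a carrier of very long chain fatty acids, lay at 4.99, 6.73 and 7.35 CPM with the fusion, against 9.41, 12.8 and 11.5 CPM with empty vector and 10.2 CPM in WT. The groups did not overlap, and the log2 fold change of -0.80 passed with the block only (edgeR adjusted p = 0.228 without and 0.0144 with it). Abcd3, the most abundant peroxisomal member, lay at 98.5 ± 6.44 CPM with the fusion and 84.4 ± 13.9 CPM with empty vector and did not pass (adjusted p = 0.845, 0.121 with the block). The lysosomal cobalamin transporter Abcd4 did not pass either (log2 fold change -0.38).

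Among the members that act in translation, Abce1 and Abcf2 had the highest levels of the family per kilobase of exon. Abce1, which recycles ribosomes, stood at 91.3 ± 20.0 CPM per kilobase with the fusion, against 92.5 ± 9.93 with empty vector and 120.2 in WT, and ranked highest in each of the 7 libraries. Its 95% interval of the log2 fold change was -0.518 to 0.517. Abcf2 and Abcf1 came next by group mean, at 63.4 ± 16.1 and 44.7 ± 11.6 CPM per kilobase with the fusion, against 55.7 ± 15.9 and 35.2 ± 9.76 with empty vector. Their SDs overlap, while Abcf2 ranked above Abcf1 in each of the 7 libraries, and Abcc4 ranked above Abcf1 in fusion replicate 2. Abcf1, linked to translation initiation, had a log2 fold change of 0.37 (edgeR adjusted p = 0.81, 0.0264 with the block), with ratios of 1.28, 1.18 and 1.38 within numbers 1, 2 and 3. Abcf3 lay at 78.1 ± 4.47 CPM with the fusion and 64.0 ± 3.85 CPM with empty vector without overlap, and did not pass (adjusted p = 0.652, 0.0744 with the block).

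**Figure D4:**
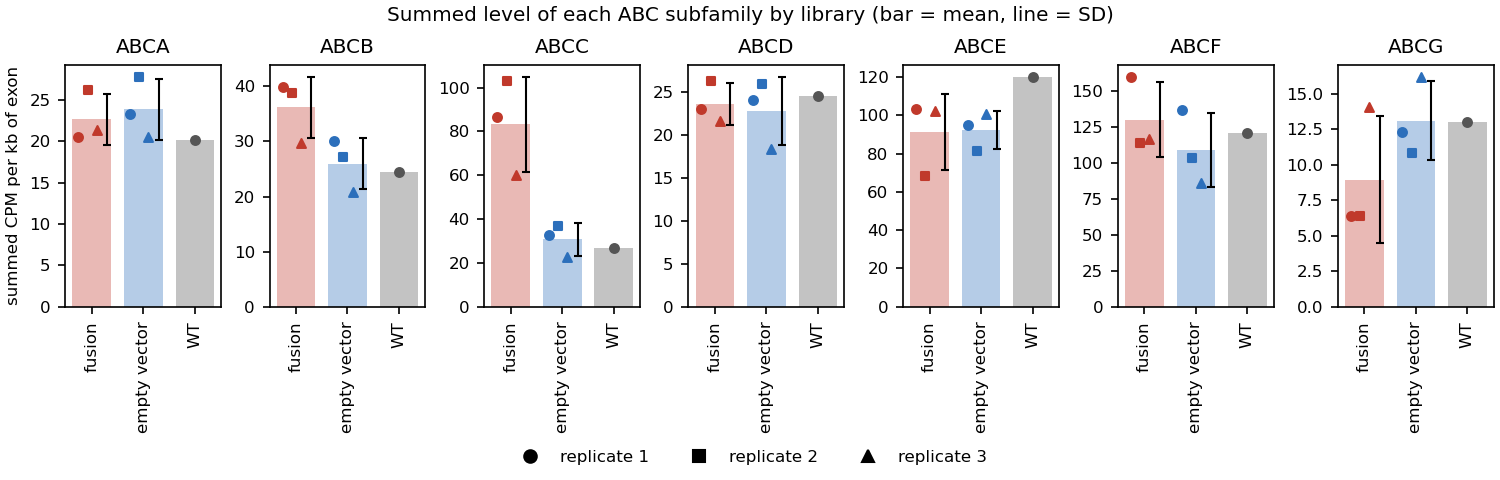
Summed CPM per kilobase of exon of each subfamily by library (points), with the mean (bar) and SD (line) for fusion and empty vector and the 1 value of WT. Subfamily C stands at 59.9 to 103.0 with the fusion, above 22.5 to 36.9 with empty vector and 26.8 in WT, while the points of the other 6 subfamilies overlap between fusion and empty vector. In subfamily B the overlap is narrow (29.8 in the lowest fusion library, 30 in the highest with empty vector).

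Over 32 members with at least 10 counts in all 6 libraries, 16 were higher with the fusion within every replicate number, 7 were lower and 9 were mixed. The same count was not made over all tested genes, so it cannot be read as a trait of the family. Of 36 tested members, 9 had fusion values all above and 4 all below the empty vector values (13 in all), beside 8.52% and 7.2% of all tested genes (15.7% in all). Summed over all 50 members the level was 2645.5, 2551.8 and 2218.3 CPM with the fusion, against 2022.0, 1926.6 and 1707.0 CPM with empty vector and 1991.9 CPM in WT. Each fusion library lay above the other 4. By subfamily, mean sums were higher with the fusion in B, C, D and F, with C at 840.1 ± 226.9 against 368.1 ± 87.8 CPM (SD). In A, E and G they were lower, with A at 188.3 ± 29.2 against 201.2 ± 31.4 CPM and G at 72.9 ± 36.6 against 106.4 ± 22.7 CPM. In A, D, E, F and G the SDs of fusion and empty vector overlapped, so no direction is read from those means.

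The comparison of empty vector with WT rests on 1 WT library. With edgeR 0 of 41 tested members passed, and 0% of 18514 tested genes did. Abcb1a and Abcb4 are given here because they had the lowest unadjusted p of the members in this same fit. Their naming is therefore not a result about the family. Abcb1a was higher with empty vector than in WT (3.35 ± 0.411 CPM over 3 libraries, against 0.743 CPM), with a log2 fold change of 2.17 (edgeR adjusted p = 0.481). It passed with the replicate block (adjusted p = 0.0437) and with DESeq2 (adjusted p = 0.000762), each time as the 1 member called. With the block 1.05% of all tested genes passed (0.319% higher and 0.735% lower), and with DESeq2 0.421% of 15659 (0.211% in each direction). The block sets WT beside the other libraries numbered 1, a number that no label ties to them and that the pairing check did not cover. Abcb4 was lower with empty vector than in WT (0.458 ± 0.252 CPM, against 1.43 CPM), with a log2 fold change of -1.60 (adjusted p = 0.976). This comparison shares its empty vector libraries with the one above, so the pair is given side by side and not correlated.

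Beyond the family, 4 lists of relatives, partners, regulators and other carriers were read in the fusion comparison. Of 15 tested organic ion and nucleoside carriers, 3 rose: the organic anion carriers Slco1a5 (log2 fold change 2.33, edgeR adjusted p = 0.0309), Slco1a6 (2.94, 0.0052) and Slco3a1 (1.60, 0.0389). Slco1a6 reached the filter's level of 0.186 CPM only in fusion libraries (66, 70 and 31 counts, against 10, 9 and 6 with empty vector), so a difference was a condition of its test. Slco3a1 lay at 7.28 to 13.4 CPM with the fusion and 2.79 to 3.79 CPM with empty vector, and at 17.4 CPM in WT, above both. Because Slco1a5 and Slco1a6 are near-identical in places, how their reads divide is uncertain. With the block 6 of these carriers rose, Slco4a1, Slc22a4 and Slc22a23 added, and Slco2a1 and Slc22a15 fell. These counts stand beside 1.69% of all tested genes higher without the block, and 7.63% higher and 5.5% lower with it. Of 10 tested nuclear receptors and related factors, 1 rose, Ahr, the receptor of dioxin-like compounds. Ahr lay at 51.1, 74.5 and 56 CPM with the fusion, against 20.5, 23.2 and 19.4 CPM with empty vector and 9.08 CPM in WT, without overlap (1.55, adjusted p = 0.0118), and Ppard rose with the block (adjusted p = 0.00277). None of 9 tested partner proteins passed without the block, and Fech, the last enzyme of haem synthesis, rose with it (adjusted p = 0.00903). Among the relatives whose symbols fall outside the family rule, Tap1 and Tap2, the peptide transporter of antigen presentation, did not pass (adjusted p = 0.829 and 0.798). Cftr, the chloride channel that belongs to subfamily C by sequence, had 129, 141 and 69 counts with the fusion, against 1, 0 and 13 with empty vector and 0 in WT. Its groups did not overlap, and it did not pass without the block (adjusted p = 0.0579, 0.0373 with it). It too passed the low-count filter through the fusion libraries.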

How the data were processed

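The authors deposited raw counts by gene and sequencing lane, with STAR, HTSeq and GRCm38 named in the submitters' processing notes. The strand setting, annotation release and tool versions are not stated in the labels, and reads with several alignments are in a row of their own. The 12 lane tables were summed into 7 libraries. Between the lanes of 1 library the counts agreed within sampling noise (p = 0.191 to 0.956, chi-square). Rows that name no gene stayed out: reads outside genes were 5.726 to 6.927% of a library, ambiguous reads 1.222 to 1.479%, and the 92 spike-in rows held at most 2 counts. Symbols, positions and exon lengths come from GENCODE M21, and 46091 of 46603 gene rows had a symbol.

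edgeR 4.0.16 in R 4.3.3 was fitted on all genes of the 6 fusion and empty vector libraries (TMM factors 0.9815 to 1.027, filterByExpr with a minimum count of 10, robust quasi-likelihood F test, Benjamini-Hochberg adjustment at 0.05). The contrast of empty vector with WT used a fit of 7 libraries, which assumes that the lone WT library varies as the rest do. CPM use TMM factors over the 7 libraries (0.9417 to 1.032), and levels between genes are per kilobase of exon. DESeq2 1.42.0 was an alternative. Same-numbered fusion and empty vector libraries deviated together from their group means (r = 0.574, 0.528 and 0.504 over 16731 genes, pseudocount 0.1 CPM), so the numbers were taken to pair the samples. Differently numbered ones had r of -0.461 to -0.0479. Deviations from a group mean cancel within the group, so positive r for same numbers makes the rest negative on balance. Those negative values add no support. The pairing comes from the same-number values and no label. The members and lists were chosen with earlier results of these data known. Members named are those called with or without the block, the highest of each subfamily, the broad exporters and the cholesterol exporters, 24 in all. Values of a few genes are not reported here, though they stayed in every fit, count and sum.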

Additional observations from a re-analysis of the deposited data

How the results depend on the processing

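In the fusion comparison the count of 4 members called stayed at 3 or 4 with RLE size factors, no low-count filter, a minimum count of 50, dispersion not robust and both libraries numbered 3 left out, and at 3 to 4 with 1 library left out. Abcb4, Abcc3 and Abcc4 passed in all of these. The count was 7 with DESeq2 and 15 with the replicate block. In fits chosen after the data were seen, the block gave 9 members without number 1, 6 without number 2 and 20 without number 3. Over all genes, 341 passed, 913 with DESeq2 and 2196 with the replicate block, 530 without a filter, and 133 without empty vector replicate 2, 196 without fusion replicate 1 and 148 without fusion replicate 2. In the comparison of empty vector with WT the count of 0 became 1 with DESeq2 and 1 with the replicate block, and was 0 with the other 10 alternatives. Fitted log2 values near 0 changed sign without passing. Abca7 (-0.04) was 0.0112 with the replicate block, 0.0717 and 0.0796 with it and without number 1 or 2, and -0.31 to 0.21 with 1 library left out. Abcb10 (0.04) was -0.0165 with the block without number 1, and -0.16 to 0.25 with 1 library left out. Abce1 (-0.00076) was 0.0023 without both libraries numbered 3, 0.0721 with the block without number 2, and -0.0928 to 0.16 with 1 library left out. Abcf2 (0.21) was -0.0067 to 0.47 with 1 library left out. Abcg1 (0.12) was -0.011 and -0.247 with the block without number 1 or 2, and -0.57 to 0.56 with 1 library left out. At these depths members under 10 counts in each library allow no statement on a change. The summed levels of subfamilies B and C moved by less than their SD with RLE factors or library totals.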
